A study of Mus musculus with 6 samples.

Results

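Pluripotency genes in mouse embryonic stem cells are described here by the RNA contact sites of JARID2 on their sense strands. The 6 genes are given by name, and their sites by genome window and strand: Pou5f1, Sox2, Nanog, Esrrb, Lin28a and Slc2a3. Their windows held 98 of 23380 sites in the list for untreated cells and 31 of 5348 sites in the list for cells given retinoic acid. The cells were E14, an established line of mouse embryonic stem cells, grown with serum and LIF, the cytokine that keeps such cells undifferentiated. One group of 3 libraries was left untreated, and the other group of 3 received 2 µM retinoic acid, an inducer of differentiation, for 24 h. All 6 libraries were made by PAR-CLIP: cells took up 4-thiouridine at 500 µM for 2 h, were irradiated at 312 nm with 400 mJ/cm2, and gave RNA crosslinked to JARID2 by immunoprecipitation with an in-house antibody. No genotype other than the E14 line is given in the labels, and a control immunoprecipitation was not analysed here.

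JARID2 is a subunit of Polycomb repressive complex PRC2, which places the repressive methyl mark on lysine 27 of histone H3, and it is known to bind RNA. Pou5f1 (the protein is also called OCT4), Sox2 and Nanog encode the core transcription factors of the pluripotent state. Esrrb encodes an orphan nuclear receptor that acts with them, and Lin28a encodes an RNA-binding protein that blocks maturation of let-7 microRNAs. Slc2a3 encodes the glucose transporter GLUT3, which is not a pluripotency factor in itself, and its gene lies next to Nanog on the other strand. Retinoic acid is known to start the exit from pluripotency, during which transcripts of several of these genes decline. RNA levels were not measured here, so fewer contacts per transcript, fewer transcripts and fewer cells that hold them cannot be told apart. The untreated list held sites on all 6 genes, which include defining markers of embryonic stem cells, but a contact is not a measure of expression.

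The authors deposited 1 list per condition, which pools its 3 libraries, so there is 1 value per condition and no spread between replicates. Each site carries a whole-number score, and the sources at hand do not say what it counts. The untreated list was 4.37 times as long as the treated list, and its summed score was 1.40 times as high. Because the lists differ in length, each gene is described by the treated list's part of its sites, which was 18.6% over the whole lists (exact 95% binomial interval 18.2 to 19.1). Intervals cover counting error only, and sites of 1 transcript are not independent. Coordinates are those of the mm9 build, counted from 1. No mm9 annotation or sequence was used, so sites are given by position and not as exonic, intronic or UTR, and their bases are not shown.

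All 129 sites of the 6 genes lay on the sense strand, and the opposite strand of the same windows held 0 sites in both lists. Up to 60 kb beyond each window the sense strand held 0 sites, so the counts do not hinge on where the windows end. Of the 489 regions of the whole lists with at least 10 sites, 96.7% also had no site on their opposite strand. A lack of antisense sites was therefore the usual pattern among site-rich regions. Slc2a3 alone held 42 of the 98 untreated sites (42.9%) and 18 of the 31 treated sites (58.1%).

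**Figure D1:**
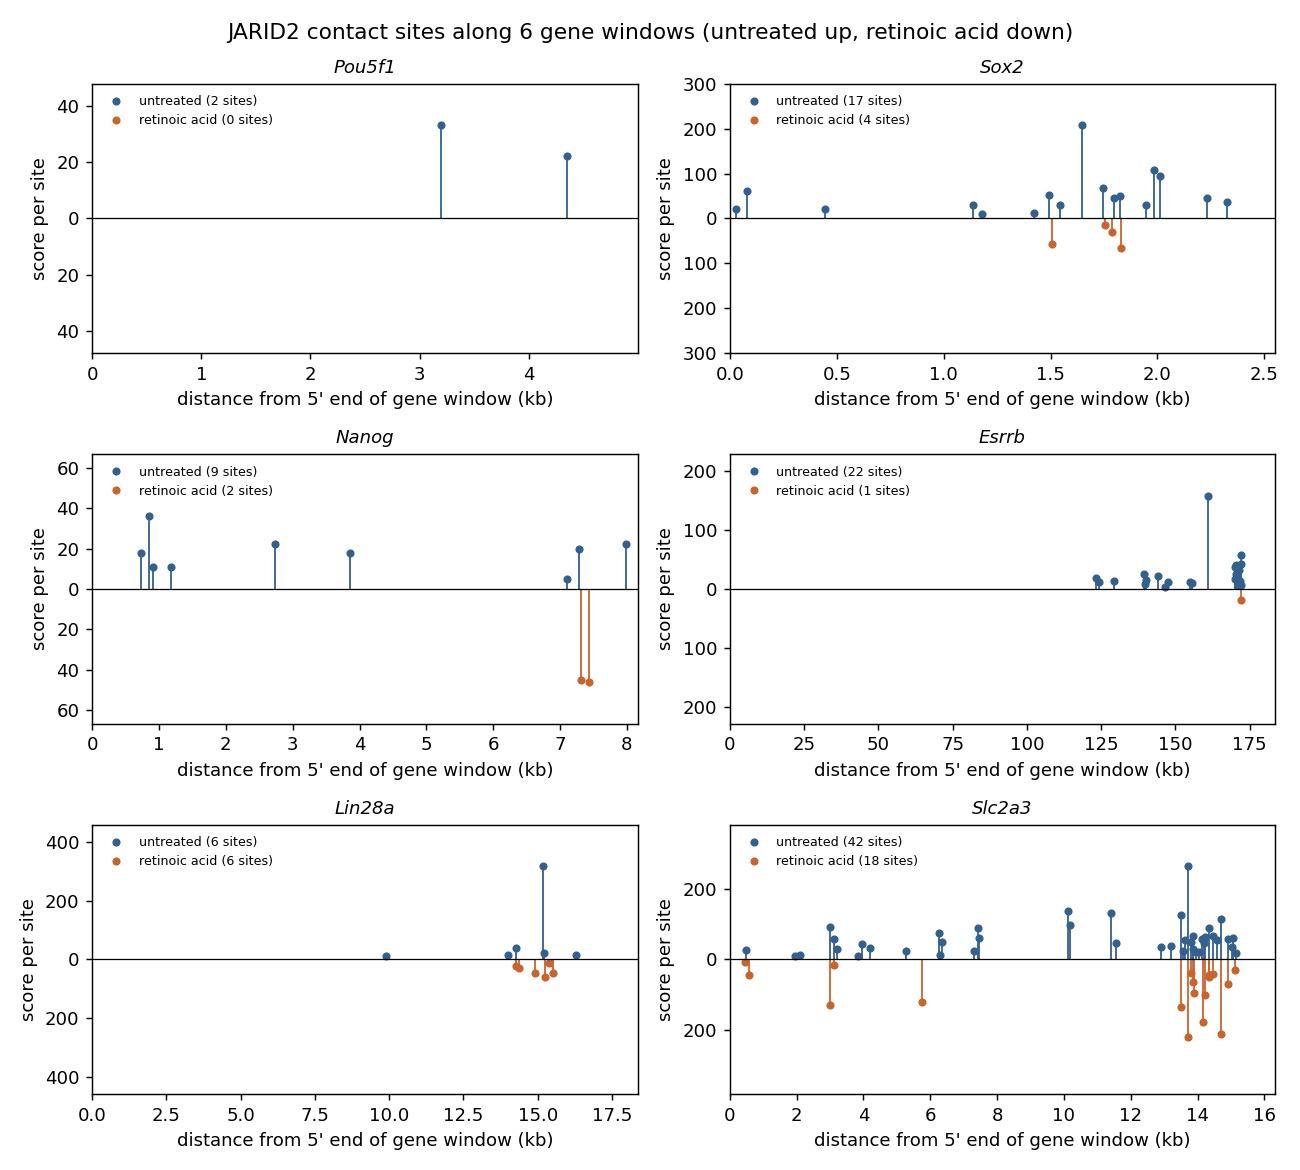
Position (distance in kb from the 5' end of each gene window, horizontal) and score (vertical, linear) of each site, with untreated sites drawn upward in blue and retinoic acid sites downward in orange. All treated sites of Sox2, Nanog, Esrrb and Lin28a lie in the 3' 50% of the stretch covered by the gene's sites. Only on Nanog and Esrrb are they near its 3' end. Pou5f1 has 0, and 13 of the 18 on Slc2a3 lie in its last 2 kb.

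Pou5f1, which encodes the POU-domain factor OCT4, had few contacts for a core pluripotency gene. Its window, chromosome 17 plus strand from 35642900 to 35647800, held 2 untreated sites and 0 treated sites. The untreated sites lay at 35646094 to 35646107, with a score of 33, and at 35647247 to 35647274, with a score of 22. The treated list allows up to 0.0561% of its sites on Pou5f1 by a limit of 3 counts, against 0.00855% measured untreated, so a loss was not detectable at this list length. RefSeq names 5 copies of Pou5f1 elsewhere in the genome, and the sources at hand do not say how reads that match several places were counted. The low number on Pou5f1 is therefore uncertain.

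Sox2, whose protein binds DNA together with OCT4, was the most densely contacted of the 6 genes per kb of window. Its window, chromosome 3 plus strand from 34548900 to 34551400, held 17 untreated sites (6.80 per kb) and 4 treated sites (1.60 per kb). Scores ran from 10 to 207 untreated, with a median of 45, and were 57, 15, 30 and 65 treated, in order along the gene. The scores of the lists overlapped, and the 4 highest untreated ones (207, 108, 94 and 67) lay above all treated ones. The 3 highest untreated sites began at 34550549 (207), 34550885 (108) and 34550911 (94), and none of these 3 had a treated site over it. The treated sites lay within 0.33 kb, from 34550407 to 34550736, while the untreated sites covered 2.33 kb.

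Of the 21 Sox2 sites in both lists together, 4 were treated, 19.0% (exact interval 5.45 to 41.9), close to the 18.6% of the whole lists. The summed score went from 921 to 167, a ratio of 5.51, so the gene's share of all score was 0.254 times as high after retinoic acid as before. On 2 treated sites there was an untreated one beneath. The site from 34550654 to 34550662 scored 15 against 67 untreated, and that from 34550730 to 34550736 scored 65 against 50. The lncRNA gene Sox2ot spans Sox2 on the same strand in the GENCODE M21 annotation, so sites of the 2 transcripts cannot be told apart by position. Sox2 itself has a single exon of 2.06 kb there.

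Nanog, a homeobox factor, held 9 untreated and 2 treated sites on chromosome 6 plus strand from 122657000 to 122665000. The untreated scores were 18, 36, 11, 11, 22, 18, 5, 20 and 22 in order along the gene, and the 2 treated scores were 45 and 46. Both treated scores thus lay above every untreated one on this gene, although the gene's summed score was 163 untreated and 91 treated. The treated sites began at 122664316 and 122664429, near the 3' end of the sites, and neither overlapped an untreated site. The nearest untreated site, at 122664283 to 122664294, ended 22 bases before the first of them. Untreated sites were spread over 7.27 kb, and 4 of the 9 lay within the first 455 bases.

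Treated sites made up 18.2% of Nanog sites (exact interval 2.28 to 51.8), again close to the whole lists. RefSeq names 2 Nanog pseudogenes, and reads that fit both gene and copy are a limit here as for Pou5f1. With 2 sites in the treated list, a loss of the gene's share was not detectable.

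Esrrb, the nuclear receptor gene, had the highest ratio of untreated to treated sites among the 5 genes with a treated site, at 22. On chromosome 12 plus strand from 87690000 to 87870000, 22 sites were listed untreated and 1 treated. The untreated scores ran from 3 to 158 with a median of 16, and the 3 highest were 158 at 87850882, 58 at 87862165 and 43 at 87861956. The single treated site, 87862166 to 87862175 with a score of 19, lay over the untreated site scored 58 and ended 35 bases before the 3' end of the gene's sites. The treated part of the sites was 4.35% (exact interval 0.110 to 21.9), the lowest of the 5 genes with a treated site, and its interval includes the 18.6% of the whole lists.

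Untreated sites on Esrrb fell into a sparse and a dense stretch. They covered 48.8 kb, from 87813366 to 87862210, and the window before them was empty. The last 3 kb, a length set after the positions were seen, held 10 of the 22 sites with a summed score of 288. The 12 sites before them carried 307, of which 158 came from 1 site. With 2 kb instead, 8 sites summed to 233 and the other 14 to 362. In the GENCODE M21 annotation of the later GRCm38 build the gene spans 160.5 kb and its longest messenger RNA 4.30 kb, with a last exon of 2.81 kb. Sites were not placed on those exons. Per kb of window, Esrrb was the sparsest gene, at 0.122 untreated sites per kb.

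Lin28a stood at the other end of the order. Its window, chromosome 4 minus strand from 133558000 to 133576000, held 6 sites in each list, although the treated list was far shorter. Treated sites were 50% of its sites (exact interval 21.1 to 78.9), above the 18.6% of the whole lists, which lies outside that interval. The untreated scores were 14, 23, 317, 39, 14 and 12 by rising coordinate, and the treated scores were 46, 12, 60, 45, 28 and 23. One untreated site, 133560808 to 133560823, carried 317 of the gene's 419, and the treated sum was 214. The medians were 18.5 untreated and 36.5 treated, and without the site scored 317 all scores of the 2 lists lay between 12 and 60.

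Equal numbers on Lin28a did not mean equal places. A single pair overlapped, 133561709 to 133561716 (39 untreated) with 133561711 to 133561718 (23 treated), and 3 of the 6 treated sites lay within 100 bases of an untreated one. The treated sites covered 1.23 kb, from 133560488 to 133561718, inside the 6.42 kb of the untreated ones. The site scored 317 had no treated site over it, but the highest treated site, 133560729 to 133560746 with a score of 60, lay 62 bases from it. The last exon of Lin28a in GENCODE M21 measures 2.99 kb, and sites were not placed on it.

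Slc2a3, the glucose transporter gene beside Nanog, carried the most contacts in both lists. On chromosome 6 minus strand from 122677000 to 122693000, 42 untreated and 18 treated sites were listed. Among all 9482 regions of joined sites, 38 held more untreated sites and 9 held more treated sites. Untreated scores ran from 9 to 265 with a median of 50, and treated scores from 8 to 220 with a median of 67.5. The ranges overlapped almost fully. Scores of at least 100 numbered 5 of 42 untreated (11.9%) and 7 of 18 treated (38.9%, exact interval 17.3 to 64.3), and over the whole lists they made up 8.09% and 20.3%. A larger part of high scores in the treated list was thus general to the lists. Treated sites were 30% of the sites (exact interval 18.8 to 43.2), and the lower bound lies just above the 18.6% of the whole lists.

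The 3 highest untreated sites on Slc2a3 were 122679264 to 122679274 (265), 122682862 to 122682890 (138) and 122681565 to 122681601 (131). The 3 highest treated sites were 122679260 to 122679276 (220), 122678293 to 122678303 (213) and 122678812 to 122678832 (179). The top site was thus at the same place in both lists, while the next untreated ones, 3.59 and 2.29 kb further 5', had no treated counterpart. In GENCODE M21 the gene spans 73.8 kb, more than the window, while its longest messenger RNA spans 14.9 kb. A pseudogene, Gm4482, lies within the longer span on the same strand, 49.8 kb before the start of that messenger RNA in the later build. Sites were not placed on either annotation.

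**Figure D2:**
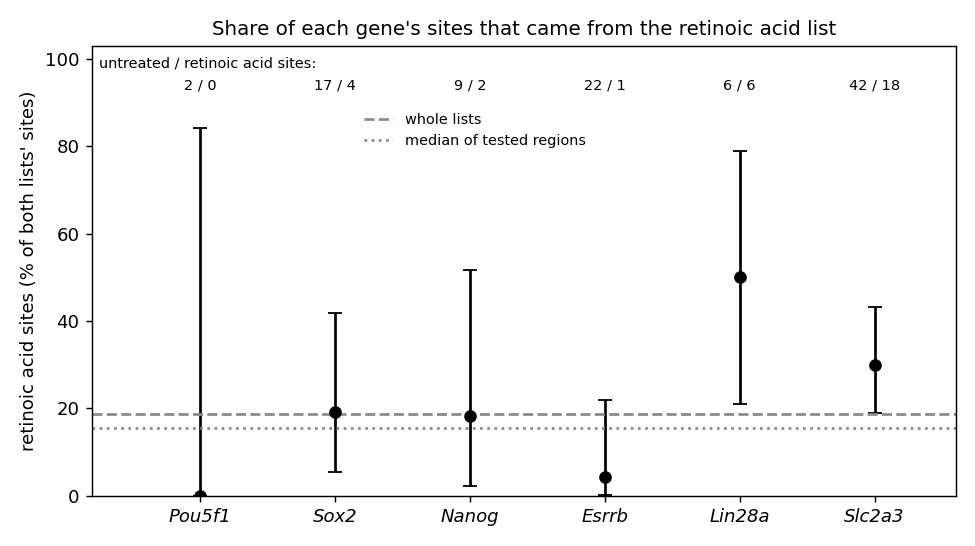
Treated sites as a percentage of the sites of both lists (vertical, linear from 0) for each gene, with exact 95% binomial intervals as bars and the numbers of untreated and treated sites on top. The dashed line is the whole lists (18.6%) and the dotted line the median of the 489 tested regions (15.4%); the values run from 0 for Pou5f1 to 50% for Lin28a.

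Set in order, the treated part of the sites was 0 for Pou5f1, 4.35% for Esrrb, 18.2% for Nanog, 19.0% for Sox2, 30% for Slc2a3 and 50% for Lin28a. Neighbours in this order had overlapping intervals. Those of Esrrb and Slc2a3 also overlapped, between 18.8 and 21.9%, as did those of Esrrb and Lin28a, between 21.1 and 21.9%. The median over the 6 genes was 18.6%, and over all 489 regions with at least 10 sites it was 15.4% (interquartile range 8.33 to 21.2). Of the 6 genes, 4 lay above that median and 2 below. Together the genes took 0.419% of the untreated list (exact interval 0.340 to 0.511) and 0.580% of the treated list (0.394 to 0.822). Treated sites were 24.0% of the sites of all 6 genes. Without Slc2a3 there were 56 untreated and 13 treated sites, 18.8% treated, close to the 18.6% of the whole lists.

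Sites of both lists were joined across gaps of up to 10 kb into regions, and each region's share of the 2 lists was compared by Fisher's exact test, two-sided, with Benjamini-Hochberg adjustment over all 489 regions. Of these regions, 2.25% were called with a larger share and 1.43% with a smaller share of the treated list. Of the 5 tested regions on Sox2, Nanog, Esrrb, Lin28a and Slc2a3, 0 were called, and 2, Lin28a and Slc2a3, had p under 0.05 before adjustment. Among all regions, 18 were called and 56 had such an unadjusted p. The test compares 2 pooled lists and not conditions with replicates.

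For Lin28a the log2 odds ratio, treated over untreated, was 2.13 (SE 0.83, Fisher exact p = 0.0137, adjusted p = 0.239). For Slc2a3 it was 0.91 (SE 0.41, Fisher exact p = 0.0301, adjusted p = 0.345). With treated sites scored at least 10 set against untreated sites scored at least 18, the Slc2a3 value was 0.03 from 37 and 17 sites, so its larger share did not hold with that minimum. For the main Esrrb region, from 87829511 to 87862210 with 19 and 1 sites, it was -2.12 (SE 1.48, Fisher exact p = 0.153, adjusted p = 0.638). Sox2 and Nanog had values of 0.04 (SE 0.80) and -0.04 (SE 1.13), each with a Fisher exact adjusted p of 1. The exact 95% intervals of their odds ratios ran from 0.252 to 3.16 for Sox2 and from 0.102 to 4.70 for Nanog, so a likeness to the whole lists is not shown for these genes.

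**Figure D3:**
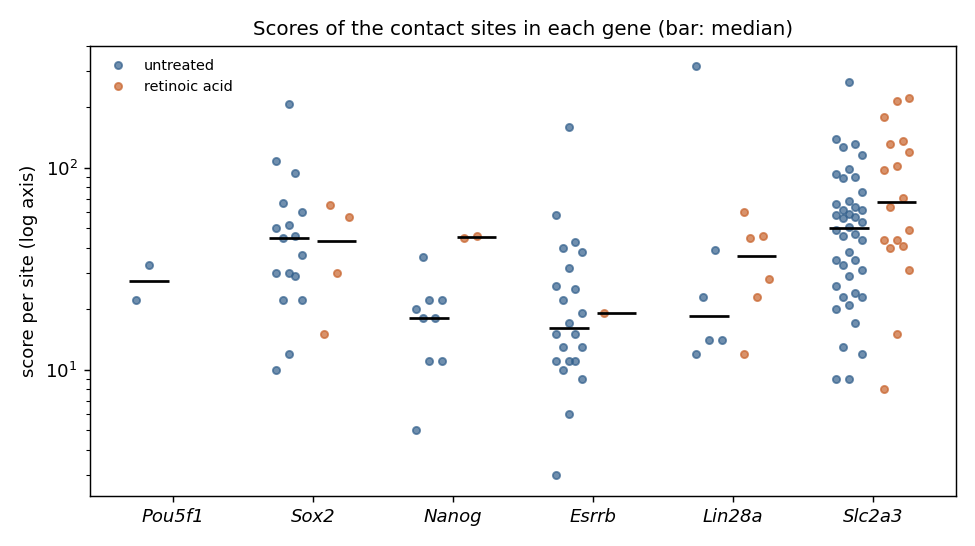
Score of every site (vertical, log axis) by gene, untreated in blue and retinoic acid in orange, with a black bar at each median. The 2 treated Nanog sites (45 and 46) lie above all 9 untreated ones, while on Slc2a3 the lists overlap, with medians of 50 and 67.5.

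By score, the 6 genes held less of the treated list than of the untreated list. The share of all score, treated over untreated, was 0.911 for Slc2a3, 0.781 for Nanog, 0.715 for Lin28a, 0.254 for Sox2 and 0.0447 for Esrrb. For the 6 genes together the sum was 4617 untreated and 2096 treated, 0.0702% and 0.0446% of all score. The score share of Lin28a turned with single sites, and that of Slc2a3 turned with the denominator. Without its untreated site scored 317, Lin28a summed to 102 untreated and 214 treated, and its score share was 2.94 times as high treated. Without the highest untreated site alone, the value was 1.02 for Slc2a3 and 1.00 for Nanog, but that removal can only raise it. With the highest site of each list left out, it was 0.881 for Slc2a3 and 0.496 for Nanog, so neither turned. The denominator rests on few sites of very high score elsewhere in the lists. Without the 10 highest-scored sites of each list, the 6 genes' score share was 0.730 times as high treated as untreated, against 0.635 with them, and that of Slc2a3 was 1.05 times as high.

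Of the 31 treated sites, 14 (45.2%, exact interval 27.3 to 64.0) overlapped an untreated site by at least 1 base, against 27.3% (26.1 to 28.6) of the whole treated list. Slc2a3 accounted for 10 of the 14, and without it 4 of 13 treated sites (30.8%) overlapped. Within 100 bases of an untreated site were 26 of the 31 (83.9%), against 42.6% of the whole treated list. On Sox2 and Slc2a3, where untreated sites stood close together, it was 4 of 4 and 17 of 18, and on the other genes 5 of 9 (55.6%). Of the 98 untreated sites, 15 (15.3%) overlapped a treated one, against 6.28% of the whole untreated list. The members' sites also had higher median scores (31.5 untreated and 46 treated) than the lists (17 and 23). Among treated sites scored 100 or more, 5 of 7 on these genes (71.4%) and 71.5% of the whole list overlapped. Among those scored 20 to 99 it was 7 of 19 (36.8%) against 27.1%, and under 20 it was 2 of 5 against 6.28%.

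Most overlapping pairs on Slc2a3 had the higher score in the treated list. The gene had 11 pairs, and in 8 of them the treated score was higher, with a median ratio of 1.41 (0.544 to 2.17). Over all 1514 pairs of the 2 lists the treated score was higher in 36.5%, and the median ratio was 0.769. These pairs were not matched by score to those of Slc2a3. Of the overlapping treated sites, 777 of 1462 in the whole list but 5 of 14 on the 6 genes scored 100 or more. On Slc2a3 the highest ratio was that of 102 treated, at 122678774 to 122678787, over 47 untreated, at 122678787 to 122678800, though these share 1 base. The same treated site also overlapped the untreated site at 122678756 to 122678776, scored 64, and both of its pairs count among the 8. At 122678293 to 122678303 the scores were 116 untreated and 213 treated, and at 122689980 to 122689994 they were 93 and 131. The other genes had 4 pairs, of which 1, on Sox2, had the higher score treated. Pairs of 1 transcript share their source, so these are descriptions of the lists.

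**Figure D4:**
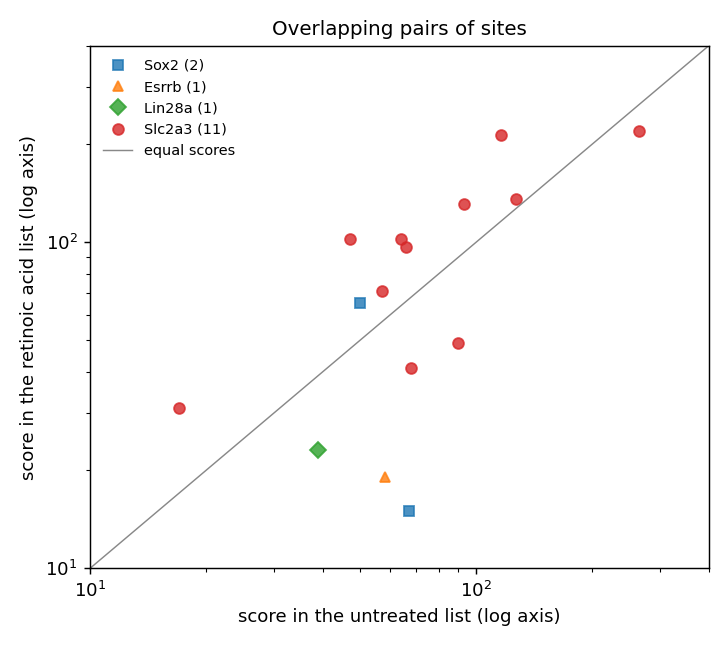
Scores of the 15 overlapping pairs of sites, untreated (horizontal) against retinoic acid (vertical), both on log axes, with a symbol for each gene and a line at equal scores. Of the 11 Slc2a3 pairs, 8 lie above the line, and of the 4 on Sox2, Esrrb and Lin28a, 1 does.

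With all sites kept, more of the treated than of the untreated sites lay toward the 3' ends. Each gene's sites were placed on a scale from the 5'-most to the 3'-most site of both lists. In the 3' 50% of that scale lay 61 of 98 untreated sites (62.2%, exact interval 51.9 to 71.8) and 26 of 31 treated sites (83.9%, 66.3 to 94.5). Over all 489 tested regions the same shares were 51.3% and 55.6%. The order turned with scores of at least 100, where 9 of 9 untreated and 5 of 7 treated sites (71.4%) lay there, the 7 all on Slc2a3. All 13 treated sites outside Slc2a3 lay in the 3' 50%, against 62.5% of untreated sites outside Slc2a3. By gene, the median position of untreated and treated sites was 27.8% and 91.6% on Nanog, 70.6% and 75.1% on Sox2, 75.5% and 81.1% on Lin28a and 85.7% and 91.3% on Slc2a3.

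On Slc2a3 the lists were alike in summed score at the 3' end and differed over the rest of the gene. The last 2 kb before the 3'-most site, a length set after the positions were seen, held 21 untreated and 13 treated sites with summed scores of 1363 and 1287, a ratio of 1.06. The remainder held 21 untreated and 5 treated sites with sums of 1101 and 318, a ratio of 3.46. That difference did not reach the 5' end. From the overlapping pair at 122689980 to the 5'-most site, 4 untreated sites summed to 141 and 3 treated sites to 183. The middle of the gene, described below, had sums of 998 and 135. Over the whole lists the ratio of summed scores was 1.40. In the last 2 kb 10 untreated sites overlapped a treated one, and in the remainder 1 did. The last exon of Slc2a3 in GENCODE M21 is 2.33 kb long, and sites were not placed on it.

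The lists hold a further quantity. Each site's name holds a running number that rises along every chromosome and strand, with 0 exceptions, and numbers without a site are skipped. The highest number was 247324 untreated and 221592 treated, a ratio of 1.12, while the sites differed by a ratio of 4.37. A number with a site made up 8.68% of the numbers untreated and 2.12% treated. The sources at hand do not say what is numbered, so these are described only as running numbers along the genome.

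On Slc2a3 both lists used almost the same number of running numbers over the same 14.7 kb. From the 5'-most to the 3'-most site the untreated list ran through 72 numbers, of which 29 (40.3%) held a site, and the treated list ran through 74, of which 13 (17.6%) did. Counted from the 5'-most site, the overlapping pair at 122689980 was number 9 in both lists, and the pair at 122679481 treated and 122679485 untreated was number 60 in both. Over all 11 pairs the counts differed by 0 to 2. Between those neighbouring pairs, a stretch of 10.5 kb chosen after the positions were seen, each list ran through 50 numbers, but the untreated list held 18 sites there and the treated list 2. Their summed scores were 998 and 135. Since the stretch runs between pairs that carry equal counts, the equal 50 follows from its ends.

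**Figure D5:**
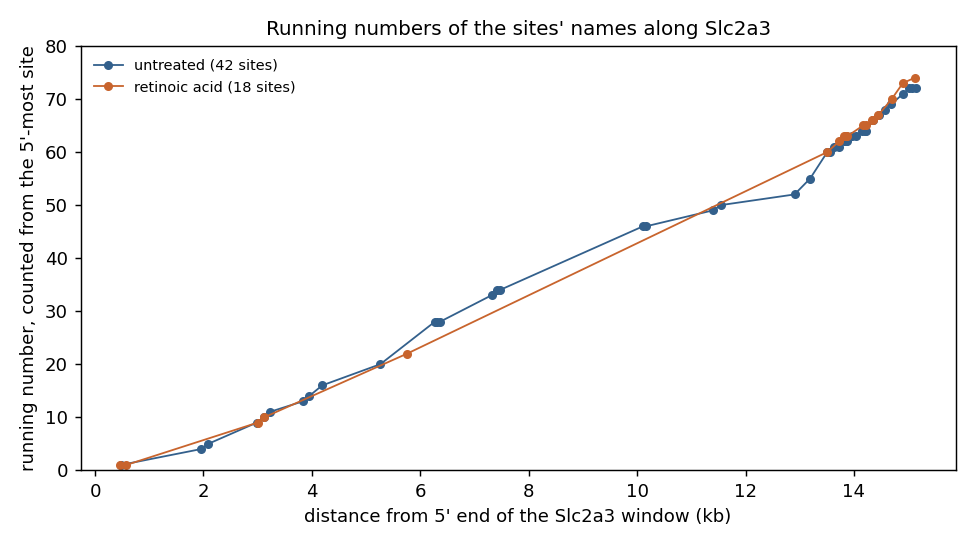
Running number in each site's name, counted from the 5'-most site (vertical), against distance in kb from the 5' end of the Slc2a3 window (horizontal), for the 42 untreated (blue) and 18 retinoic acid sites (orange), joined by lines. The lines run together and end at 72 and 74, though the treated list has 2 sites where the untreated list has 18 in the middle of the gene.

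Among 44 nuclear regions in which both lists covered at least 90% of the same span, Slc2a3 included, the numbers used treated over untreated had a median ratio of 0.876 (interquartile range 0.653 to 1.03), and it was 1.03 for Slc2a3. The part of numbers with a site was lower treated in 36 of the 44. On the other genes the treated sites covered shorter spans than the untreated ones. On Lin28a they ran through 8 numbers over 1.23 kb and on Sox2 through 6 over 0.33 kb. Numbers were therefore counted between the nearest treated sites outside the window. Around Pou5f1, which had 0 treated sites, the treated list ran through 59 numbers over 665 kb, and the untreated list through at least 49 and at most 104. Around Lin28a the treated list ran through 141 numbers over 1086 kb and the untreated list through 151 to 158.

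Around Sox2 there were 99 treated numbers over 1735 kb, against 100 to 165 untreated. Around Nanog there were 116 over 3940 kb, against 130 to 254, and around Esrrb 315 over 13638 kb, against 383 to 428. These intervals hold many other genes, so they show the numbering around each gene and not the gene itself. In the untreated list, where the sites are dense enough, the numbers within the genes were 114 for Esrrb, 29 for Nanog, 22 for Sox2, 20 for Lin28a and 7 for Pou5f1. The part of them that held a site was lowest on Esrrb, at 16.7%, and highest on Sox2, at 50%.

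Sites were short in all genes. Median lengths per gene ran from 12 bases on Nanog to 21 on Pou5f1 untreated, and from 8.5 on Sox2 to 14 on Nanog treated, beside 12 for both whole lists. Neighbouring untreated sites stood close on Sox2, with a median gap of 49 bases, and on Slc2a3, with 101 bases. They were far apart on Nanog (474), Esrrb (566) and Lin28a (885). Per kb of the longest annotated messenger RNA, untreated sites numbered 10.6 on Slc2a3, 8.26 on Sox2, 5.12 on Esrrb, 4.07 on Nanog, 1.71 on Lin28a and 1.47 on Pou5f1. Treated sites numbered 4.55, 1.94, 0.233, 0.905, 1.71 and 0 in the same order of genes. This scale takes all sites of a gene as if they lay on the spliced RNA, which was not tested.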

How the data were processed

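The members and the lists were chosen with earlier results of these data known. Per the submitters' processing notes, Bowtie and mm9 were used, with no version or role stated. The site caller is not given in the sources at hand. The deposited lists give 1 score per site, pooled over 3 libraries by the authors, with no header. All sites were kept. Windows came from the stated rule, and all 6 genes were named. A site belonged to a gene when it overlapped the window on the sense strand, and to both lists when at least 1 base overlapped on that strand. Each region's Fisher exact test was adjusted across all regions. It was tried on simulated counts that were drawn independently, with changes placed only in regions with many sites. That trial does not cover changes in smaller regions or dependence between sites of 1 transcript. Gene lengths and overlaps came from GENCODE M21 (GRCm38) and names of copies from RefSeq (GRCm38.p6), with no coordinates carried over. Lists of further pluripotency genes and of cell type markers could not be run without mm9 positions. Alternatives were score minimums, joined sites, wider windows, other gaps, overlaps and denominators. Leaving out Slc2a3 or a gene's highest untreated site, and the alternatives for positions along the genes, were chosen after seeing the data. The 2 kb and 3 kb stretches were too. Read depth is unknown. Software was scipy 1.17.1, numpy 2.4.6 and matplotlib 3.10.9 under Python 3.11.15.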

Additional observations from a re-analysis of the deposited data

How the results depend on the processing

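With scores of at least 100, 9 untreated and 7 treated sites were left in the 6 genes, the treated part was 43.8% (36.5% over the whole lists at that minimum), and 100% of the untreated but 71.4% of the treated sites lay in the 3' 50%. By gene, 0 of 2 Sox2, 0 of 1 Esrrb and 0 of 1 Lin28a sites were then treated, against 7 of 12 (58.3%) on Slc2a3. The treated part stayed within its main interval with the 4 other settings tried. Widening the windows by 2 kb could not change it, since those flanks held 0 sites. With the raised untreated minimum of 18 it was 29.1%. That minimum lies above the median score of the whole untreated list, 17, so the whole lists change too. Their treated part was not computed there. Slc2a3, at 31.5%, then had a log2 odds ratio of 0.03. A higher treated part in the 6 genes than in the whole lists is therefore not shown at that setting. Of the treated sites, 25.8% overlapped when 50% of both sites had to be shared, and 83.9% lay within 100 bases. Score share, treated over untreated, was 0.655 without the highest-scored site per gene and list, and 0.730 with list totals less their 10 highest. Without Slc2a3, 100% of treated sites lay in the 3' 50%. Score share reversed for Lin28a, to 2.11 without the highest site in each list and 2.94 without the untreated one alone. For Slc2a3 it reversed to 1.05 with those totals. Without the highest untreated site alone it was 1.02 for Slc2a3 and 1.00 for Nanog. Without the highest site in each list it was 0.881 and 0.496, the same direction as with all sites. By adjusted Fisher exact p, 0 regions on these genes were called under the 7 settings run, but the settings tested 1 to 5 such regions. Lin28a had too few sites to be tested with at least 20 sites, with scores of at least 100 or with the raised minimum. Over all regions, those called with a smaller share numbered 0 with gaps of 1 kb and 11 with at least 20 sites, against 7. Those with a larger share numbered 4 with the raised untreated minimum of 18, against 11, and with scores of at least 100 both counts were 0. The log2 odds ratio changed sign for Sox2, to -0.021 with scores of at least 10 and -0.76 with the raised minimum, and for Nanog, to 0.066 with scores of at least 10, from values near 0. The opposite strand gave 0 sites and so no share. No paired analysis was possible because each list pools its 3 libraries, and for the same reason no library could be left out. The causes of these changes were not tested.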
